A study of Mus musculus with 6 samples.

Results

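The genes described here carry fatty acids into the absorptive cell of the small intestine and pack the lipid into lipoproteins. They are Fabp1, Fabp2, Cd36, Apoa1, Apoa4, Apob, Apoc3, Mttp, Dgat1 and Dgat2, taken by symbol from both tables of the series. Where a symbol had several RefSeq entries, the entry with the highest mean was used. This concerned Mttp alone, with 2 entries. Of these 10 genes, 9 had values, out of 17403 symbols in either table, and Cd36 was not analysed here. All animals were C57BL/6 mice with the Lgr5Gfp-CreERT2 allele, which places a green fluorescent reporter and a tamoxifen-activated Cre recombinase under the control of the stem cell gene Lgr5. Every group received 3 tamoxifen injections. On day 6 small-intestinal crypts were isolated and Lgr5-GFP+ stem cells were sorted, so the libraries hold RNA of cells that carry the reporter. RingKO cells (2 libraries) were Ring1a-/- Ring1bf/f and lacked one Polycomb RING protein in the whole animal and the other after recombination. WT cells (2 libraries) carried normal alleles of both. Bcat_RingKO cells (1 library) carried the Ctnnb1-ex3 allele of the beta-catenin gene, known to stabilize the protein once recombined, together with the Ring alleles, and Bcat cells (1 library) carried Ctnnb1-ex3 without them. The series asks what Polycomb repressive complex 1, a silencing complex that marks histones with ubiquitin, does in the intestinal epithelium.

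Dietary fat is absorbed by enterocytes, the cells that line the villi and arise from the sorted stem cells. Fatty acids enter across the brush border with the help of the scavenger receptor CD36 and are bound in the cytosol by the fatty acid binding proteins FABP1, which the liver makes as well, and FABP2, which is made mainly in the intestine. In the endoplasmic reticulum DGAT1 and DGAT2 add the last acyl chain of triglyceride. The microsomal triglyceride transfer protein, encoded by Mttp, loads this triglyceride onto apolipoprotein B, the structural protein of the chylomicron. Apolipoproteins A-I, A-IV and C-III join the particle and act in plasma: A-I is the main protein of high-density lipoprotein, and C-III slows the clearance of triglyceride. Apoa1, Apoc3 and Apoa4 lie beside each other on mouse chromosome 9. Most of these genes are expressed in hepatocytes as well, since the liver also secretes lipoproteins.

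RefSeq promoters (250 bases before the transcript start, build GRCm38.p6, a different build from that of the files) were available for 7 of the 10 genes. Those of Fabp1, Fabp2, Apoa1 and Apoa4 are shown because these genes were lower together in the Bcat pair described below, and that of Apob because it was not. Capitals mark CAAAG on either strand (read as CTTTG on the strand shown) and TATAAA on the strand shown or its reverse complement, the TATA box. CAAAG is a short core within sites of the nuclear receptors HNF4A and HNF4G, but so few letters do not single out these factors.
Fabp1: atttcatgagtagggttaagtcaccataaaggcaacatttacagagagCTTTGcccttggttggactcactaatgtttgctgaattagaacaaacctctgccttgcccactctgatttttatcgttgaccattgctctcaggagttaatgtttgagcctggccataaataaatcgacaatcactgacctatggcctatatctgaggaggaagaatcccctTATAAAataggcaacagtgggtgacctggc
Fabp2: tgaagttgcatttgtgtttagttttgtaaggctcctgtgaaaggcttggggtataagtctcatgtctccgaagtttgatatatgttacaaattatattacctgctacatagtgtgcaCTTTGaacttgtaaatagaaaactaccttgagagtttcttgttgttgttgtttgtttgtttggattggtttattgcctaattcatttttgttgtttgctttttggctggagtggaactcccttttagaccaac
Apoa1: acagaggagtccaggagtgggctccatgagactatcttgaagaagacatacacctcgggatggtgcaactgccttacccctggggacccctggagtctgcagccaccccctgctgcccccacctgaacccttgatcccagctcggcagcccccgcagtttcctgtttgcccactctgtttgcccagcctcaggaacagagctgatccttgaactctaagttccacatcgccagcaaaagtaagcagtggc
Apoa4: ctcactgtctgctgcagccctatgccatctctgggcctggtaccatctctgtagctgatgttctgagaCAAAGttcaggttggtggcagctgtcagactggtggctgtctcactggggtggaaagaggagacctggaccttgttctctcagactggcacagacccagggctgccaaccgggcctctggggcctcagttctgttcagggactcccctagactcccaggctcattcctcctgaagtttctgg
Apob: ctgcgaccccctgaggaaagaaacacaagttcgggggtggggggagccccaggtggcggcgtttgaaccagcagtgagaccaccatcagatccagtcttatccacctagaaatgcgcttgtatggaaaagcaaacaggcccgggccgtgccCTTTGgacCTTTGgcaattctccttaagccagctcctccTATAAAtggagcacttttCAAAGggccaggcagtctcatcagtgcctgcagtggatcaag
These windows are chr6:71199629-71199878 (Fabp1), chr3:122894822-122895071 (Fabp2), chr9:46228380-46228629 (Apoa1), chr9:46240594-46240843 (Apoa4) and chr12:7977427-7977676 (Apob), all on the plus strand. CAAAG was found in 6 of the 7 promoters (Apoa1 had none in this window), against 48.6% of 32851 promoters of the same length. The 7 include those of Cd36 and of Mttp, also lower in the Bcat pair, which are not shown. For these genes the bases after the window did not match the start of an annotated transcript, so the place of the window is less certain. TATAAA was found in Fabp1, from 30 bases before the start, and in Apob, from 60 bases before it, against 12.4% of all promoters. The nuclear receptor element AGGTCA was found in Fabp1 and Cd36 (14.0% of all promoters), the CDX site TTTATG in the same 2 genes (10.8%) and the HNF1 element GTTAAT in Fabp1 (6.43%). The longer HNF4 core CAAAGTCCA and the GATA site AGATAA were found in none of the 7, against 0.384% and 9.99% of all promoters. Both strands were searched, the only overlap was of TTTATG with AGGTCA in Cd36, and a match is a description of letters, not of binding.

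Values below are normalized reads, (reads + 1) divided by a size factor of the library. The authors' group means were split into the reads of their 2 libraries, called A and B, and these letters are not the replicate numbers of the labels. The libraries held 2651201 to 2911422 reads in RingKO, 6294932 to 6753789 in WT, 4470853 in Bcat_RingKO and 922153 in Bcat. The targeted gene Ring1 had 14.2 and 17.2 normalized reads in RingKO libraries A and B, against 310 and 257 in WT libraries A and B (authors' deposited adjusted p = 1.26e-26), while Rnf2, which encodes RING1B, had an authors' log2 fold change of 0.16 (adjusted p = 1). In the Bcat pair Ring1 had 43 reads (9.62 RPM, reads per 1000000 reads of the library on entries found in both tables) in Bcat_RingKO, against 24 (26.0 RPM) in Bcat, a normalized ratio of 0.352 (95% counting interval 0.213 to 0.617). Its share of reads in Bcat_RingKO was above that in the RingKO libraries (3.09 and 4.15 RPM), and its share in Bcat was below that in the WT libraries (71.7 and 57.7 RPM). Counts over a whole transcript do not check a floxed exon, here as for Ctnnb1. The sort marker Lgr5 had 657 and 320 normalized reads in RingKO libraries A and B, against 603 and 650 in WT libraries A and B. RingKO library B stood apart from library A: all 12 of 12 stem cell markers were lower in it, with a median log2 ratio of B over A of -0.75, and 21 of 27 enterocyte markers were higher, with a median of 0.52. Nothing in the labels says that the libraries came from separate animals, so p-values measure the spread between libraries, which may be technical. In RNA from pooled cells, fewer cells that express a gene and less RNA of it per cell cannot be told apart. A gene is said to rise or fall where the authors' adjusted p, taken over 18376 entries, was under 0.05. Values with ± are edgeR log2 fold changes and SE (2 libraries per genotype), beside the adjusted p of edgeR's quasi-likelihood test.

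The first comparison asked how the genes differ in RingKO stem cells. Of the 9 genes, 1 fell in the authors' deposited table, where 1.76% of all entries fell, and 0 rose, where 3.14% rose (4.90% of entries passed in either direction). At an unadjusted p under 0.05 in that table, 1 gene was higher (Dgat2) and 1 lower (Fabp2). The share of all entries at this unadjusted threshold was not counted. The other tests of the same reads called 1 gene as higher (edgeR, Dgat2; 9.91% of the entries it tested) and 2 (DESeq2, Dgat2 and Apob; 6.88%), and each called Fabp2 alone as lower (2.95% and 1.89%). The median authors' log2 fold change of the 9 genes was 0.50, against 0.02 over all entries and -0.18 over entries at a mean of 10 or more. Its sign rested on RingKO library B: without that library the edgeR estimates of all the genes but Apob and Dgat2 were below 0. In 2 genes (Apob and Dgat2) both RingKO libraries were above both WT libraries, as for 19.3% of entries at a mean of 10 or more, and in 3 (Fabp2, Mttp and Dgat1) both were below, as for 44.4%. In the other 4 genes (Fabp1, Apoa1, Apoa4 and Apoc3) the genotypes overlapped. The authors' scaling sets log2 fold changes a median of 0.17 lower than edgeR's over the 11170 entries edgeR tested.

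**Figure D1:**
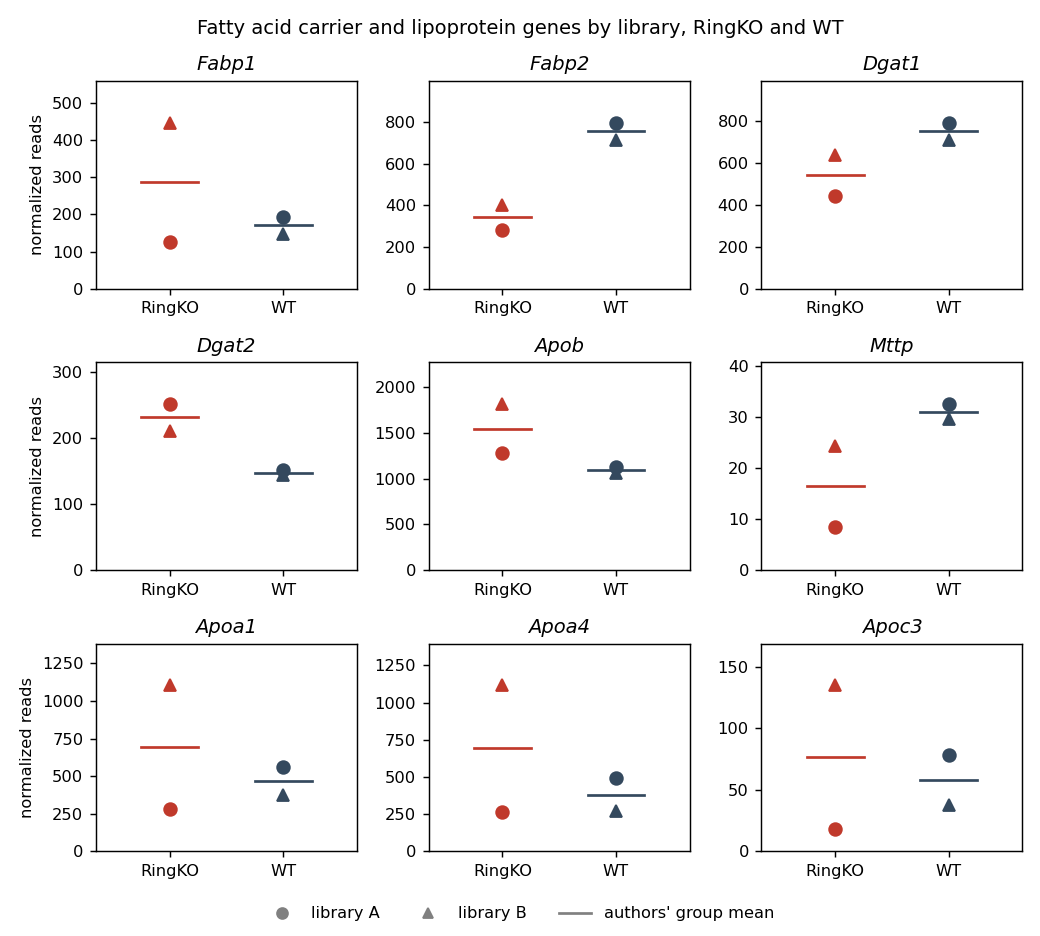
Normalized reads of each gene (vertical axis, starting at 0) in RingKO (left) and WT (right), with library A as circles, library B as triangles and the authors' group mean as a line. Fabp2 lies lower in both RingKO libraries (284 and 401) than in WT (797 and 715), while Apoa1 and Apoa4 have their highest value in RingKO library B and their lowest in RingKO library A.

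The 2 cytosolic fatty acid carriers did not follow each other. Fabp2 had 284 and 401 normalized reads in RingKO libraries A and B, against 797 and 715 in WT libraries A and B. Both RingKO libraries were below both WT libraries, and Fabp2 fell, with an authors' fold of 0.453 (log2 -1.14, deposited adjusted p = 1.61e-05) and an edgeR log2 fold change of -0.96 ± 0.20 (adjusted p = 0.0167). The sign stayed when any 1 library was left out, but the edgeR adjusted p was then 0.131 without WT library A and 0.0589 without WT library B. Fabp1 had 125 and 447 normalized reads in RingKO libraries A and B, against 193 and 147 in WT libraries A and B. The RingKO libraries lay on either side of both WT libraries. The authors' log2 fold change of Fabp1 was 0.75 (adjusted p = 1) and edgeR gave 0.94 ± 0.49 (adjusted p = 0.274). Without RingKO library B it was -0.31 (adjusted p = 0.401), and without RingKO library A it was 1.61 (adjusted p = 9.65e-06). Per kilobase of transcript, Fabp1 stood at 0.763 and 1.95 times Fabp2 in RingKO libraries A and B, against 0.422 and 0.358 times in WT libraries A and B, so the ratio was higher in both RingKO libraries.

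The acyltransferases that complete triglyceride did not share a direction either. Dgat2 had 252 and 211 normalized reads in RingKO libraries A and B, against 151 and 144 in WT libraries A and B. This was one of the most even differences among the genes: both RingKO libraries were above both WT libraries, and library B was 0.838 times library A in RingKO and 0.948 times in WT. The authors' log2 fold change was 0.65 (deposited adjusted p = 0.208), and edgeR gave 0.82 ± 0.15 (adjusted p = 0.0107). DESeq2 gave an adjusted p of 0.0279. The edgeR adjusted p of Dgat2 was 0.108 without WT library A and 0.164 without WT library B, and its log2 fold change lay between 0.73 and 0.91 whichever library was left out. Dgat1 had 443 and 639 normalized reads in RingKO libraries A and B, against 792 and 711 in WT libraries A and B. Both RingKO libraries were below both WT libraries, but the authors' log2 fold change of -0.47 did not pass (deposited adjusted p = 0.447), and edgeR gave -0.29 ± 0.20 (adjusted p = 0.422). Without RingKO library B it was -0.62 (adjusted p = 0.00314) and without RingKO library A -0.02 (adjusted p = 0.939). Per kilobase, Dgat1 exceeded Dgat2 in every library, by 2.12 and 3.64 times in RingKO libraries A and B, against 6.28 and 5.95 times in WT libraries A and B.

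Of the genes of particle assembly, Apob was the most abundant of the 9 by reads in both genotypes. Apob had 1277 and 1817 normalized reads in RingKO libraries A and B, against 1129 and 1064 in WT libraries A and B. Both RingKO libraries were above both WT libraries. The authors' log2 fold change was 0.50 (deposited adjusted p = 0.637), and edgeR gave 0.69 ± 0.20 (adjusted p = 0.0657), while DESeq2 called it (adjusted p = 0.0233). Its edgeR log2 fold change was 0.95 without RingKO library A (adjusted p = 2.36e-05) and 0.37 without RingKO library B (adjusted p = 0.0332), but it did not pass without WT library A (0.73, adjusted p = 0.301) or without WT library B (0.62, adjusted p = 0.449). Mttp, whose product works with apolipoprotein B, was the gene with the fewest reads: 5 and 16 reads in RingKO libraries A and B, against 50 and 41 in WT libraries A and B. These are 8.53 and 24.4 normalized reads in RingKO, against 32.6 and 29.6 in WT. Both RingKO values were below both WT values, with an authors' log2 fold change of -0.92 (deposited adjusted p = 0.693) and an edgeR estimate of -0.83 ± 0.49 (adjusted p = 0.343). Without RingKO library B it was -1.94 (adjusted p = 0.0261) and without RingKO library A -0.19 (adjusted p = 0.78). Per kilobase, Apob stood at 51.1 and 22.5 times Mttp in RingKO libraries A and B, against at most 10.5 times in either WT library.

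The apolipoproteins that coat the particle varied most between libraries of one genotype. Apoa1 had 280 and 1104 normalized reads in RingKO libraries A and B, against 560 and 376 in WT libraries A and B. Apoa4 had 267 and 1116 in RingKO libraries A and B, against 492 and 270 in WT libraries A and B. Apoc3 had 18.5 and 135 in RingKO libraries A and B, against 78.6 and 37.3 in WT libraries A and B. In all 3 genes RingKO library B was the highest library and RingKO library A the lowest (close to WT library B for Apoa4), and within WT library A was above library B. The authors' log2 fold changes were 0.57, 0.86 and 0.40 for Apoa1, Apoa4 and Apoc3 (deposited adjusted p = 1 for each), and edgeR gave 0.76 ± 0.53, 1.06 ± 0.58 and 0.58 ± 0.72 (adjusted p = 0.415, 0.296 and 0.662). RingKO library B decided their sign. Without it, edgeR gave -0.60 (adjusted p = 0.0541), -0.38 (0.397) and -1.61 (0.043), and without RingKO library A it gave 1.45 (3.42e-05), 1.76 (5.53e-05) and 1.42 (0.00561).

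**Figure D2:**
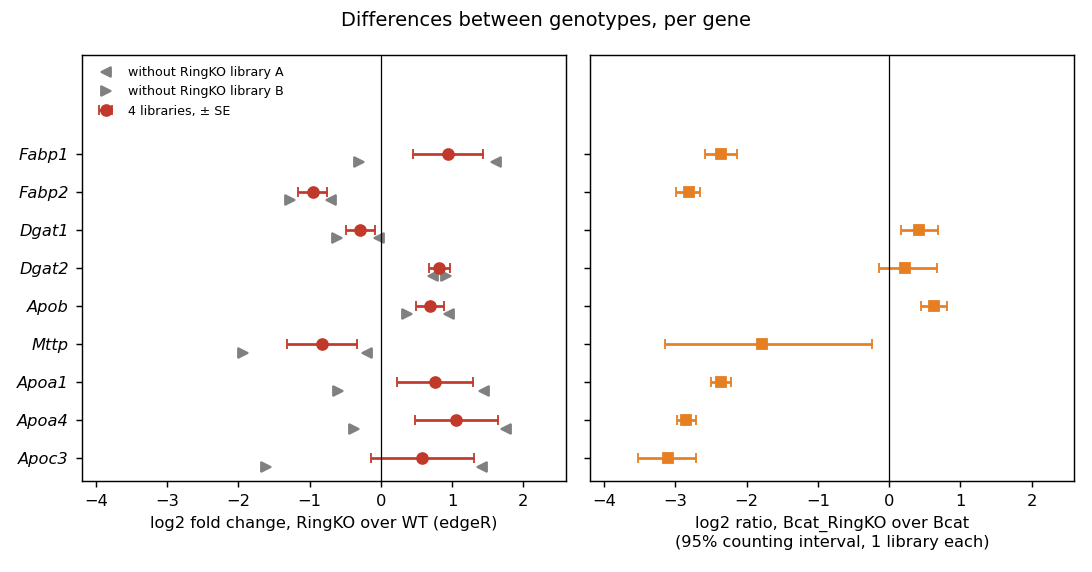
Left, edgeR log2 fold change of RingKO over WT per gene (horizontal axis) with its SE (bars, 2 libraries per genotype), and the same estimate without RingKO library A or B (grey triangles). Right, log2 ratio of Bcat_RingKO over Bcat with its 95% counting interval, 1 library each. Without RingKO library B the estimates of Fabp1, Apoa1, Apoa4 and Apoc3 lie below 0, and these 4 genes, Fabp2 and Mttp lie below -1 in the Bcat pair.

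The spread within each genotype was therefore set out gene by gene. RingKO library B stood above library A by 7.83 times for Apoc3 (95% counting interval 4.28 to 15.7), 4.19 times for Apoa4 (3.57 to 4.95), 3.96 times for Apoa1 (3.38 to 4.66) and 3.60 times for Fabp1 (2.83 to 4.62). Mttp had a ratio of 3.23 (1.13 to 11.3). Gaps of more than 2-fold in this direction were found in 5 of the 9 genes, against 1.76% of 7939 entries at a mean of 50 or more, and in the opposite direction in none of the 9, against 0.768%. Mttp, 1 of these 5, had group means of 16.5 in RingKO and 31.1 in WT, so those entries do not include it. Fabp2, Apob and Dgat1 had ratios of 1.41, 1.42 and 1.44, and Dgat2 had 0.838 (0.669 to 1.05). Between the WT libraries, B over A was 0.47 for Apoc3 (0.333 to 0.655), 0.548 for Apoa4, 0.67 for Apoa1 and 0.762 for Fabp1, and 0.896 to 0.948 for the other 5 genes, so that 1 of the 9 was more than 2-fold lower in B (0.327% of entries) and none was more than 2-fold higher (0.176%). The same 4 genes thus differed most within both genotypes, and they summed to 166 and 735 RPM in RingKO libraries A and B, against 306 and 187 in WT libraries A and B. The intervals cover counting error only, since reads carried no molecular identifiers.

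Other transcripts also differed between the libraries of one genotype. A list of 20 hepatocyte genes, mostly plasma proteins and liver enzymes, was chosen after the values had been seen, and it summed to 294 and 4090 normalized reads in RingKO libraries A and B, against 1136 and 276 in WT libraries A and B. All 20 were higher in RingKO library B than in library A, with a median log2 ratio of 3.67, and their median of WT library B over A was -1.18. Alb, the gene for serum albumin, had 65.4 and 1936 normalized reads in RingKO libraries A and B, against 472 and 43.0 in WT libraries A and B. The heme-binding plasma protein gene Hpx had 11.4 and 152 normalized reads in RingKO, against 108 and 7.05 in WT. At 0 reads were Ahsg, Serpina1c, Serpina3k, Tdo2 and Mup3 in RingKO library A and Ahsg, Serpina3k and Mup3 in WT library B, while none of the 20 was at 0 in RingKO library B or WT library A. No entry of this list passed in the authors' deposited table in either direction, 0 had an unadjusted p under 0.05, edgeR called 0 and DESeq2 called 1 as higher. Enterocyte markers outside lipid handling summed to 4030 and 5290 RPM in RingKO libraries A and B, against 4820 and 4680 in WT libraries A and B. Their median log2 ratio of library B over A was 0.52 in RingKO but -0.02 in WT. Among them, Krt20 and Rbp2 were chosen after their values were seen. The cytokeratin gene Krt20 had 96.6 and 304 normalized reads in RingKO libraries A and B, against 355 and 438 in WT libraries A and B. The retinol carrier gene Rbp2 had 85.3 and 406 in RingKO, against 296 and 187 in WT. Within WT, library A was thus the lower for Krt20, unlike the 4 genes, and the higher for Rbp2. The part of either group of transcripts in the values of Fabp1, Apoa1, Apoa4 and Apoc3 was not tested. Between RingKO library A and WT library B, where the hepatocyte sums were nearly equal, the RingKO over WT ratio was 0.99 for Apoa4 (95% counting interval 0.824 to 1.18), 0.849 for Fabp1 (0.649 to 1.09), 0.745 for Apoa1 (0.627 to 0.877) and 0.495 for Apoc3 (0.226 to 0.883). In the same pair it was 0.398 for Fabp2 (0.339 to 0.462), 0.624 for Dgat1 (0.546 to 0.707), 0.288 for Mttp (0.0758 to 0.622), 1.20 for Apob (1.10 to 1.30) and 1.75 for Dgat2 (1.42 to 2.15). This pair of libraries was chosen after the values were seen, has no replicates and carries no test.

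**Figure D3:**
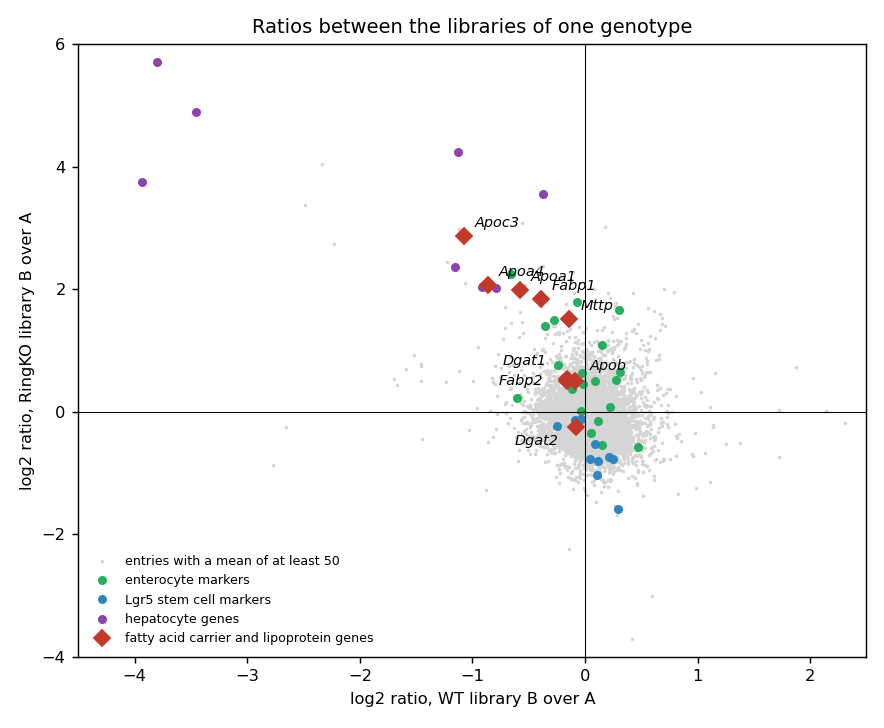
Log2 ratio of RingKO library B over A (vertical axis) against that of WT library B over A (horizontal axis) for 7939 entries at a mean of 50 or more (grey; 2 lie outside the axes), with 20 enterocyte markers (green), 10 Lgr5 stem cell markers (blue), 9 hepatocyte genes (purple) and the 9 fatty acid carrier and lipoprotein genes (red diamonds). Apoc3, Apoa4, Apoa1 and Fabp1 lie up and to the left among hepatocyte and some enterocyte genes, while Fabp2, Apob, Dgat1 and Dgat2 lie in the main cloud.

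The second comparison asked the same of cells that also carried Ctnnb1-ex3, with 1 library per group and so no test. Of the 9 genes, 6 were more than 2-fold lower in Bcat_RingKO than in Bcat, as were 8.86% of 12113 entries with at least 10 reads over the pair, and 0 were more than 2-fold higher, against 29.7% of entries. The 6 were Fabp1, Fabp2, Apoa1, Apoa4, Apoc3 and Mttp, and they comprised both carriers and all 3 coat apolipoproteins. Apob, Dgat1 and Dgat2 were not among them. The median log2 ratio of the 9 genes was -2.36, against 0.36 over the 12113 entries. Scaling by trimmed means (TMM) shifted every log2 ratio by -0.22 and left the counts at 6 and 0.

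The fatty acid carriers were both lower. Fabp2 had 234 normalized reads (522 reads) in Bcat_RingKO, against 1650 (737 reads) in Bcat, a ratio of 0.142 (95% counting interval 0.126 to 0.159). Fabp1 had 152 normalized reads in Bcat_RingKO, against 783 in Bcat, a ratio of 0.195 (0.167 to 0.227). The coat apolipoproteins were lower by a similar amount. Apoa4, the most abundant of the 9 genes by reads in the Bcat library, had 374 normalized reads in Bcat_RingKO, against 2686 in Bcat, a ratio of 0.139 (0.127 to 0.152). Apoa1 had 372 in Bcat_RingKO, against 1919 in Bcat (ratio 0.194, 0.176 to 0.214), and Apoc3 had 37.6 in Bcat_RingKO, against 324 in Bcat (0.116, 0.0869 to 0.152). Mttp had only 12 reads in Bcat_RingKO, against 8 in the shallower Bcat library, a normalized ratio of 0.289 with a wide interval (0.113 to 0.846).

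Apob, which encodes the protein on which the particle is built, was not lower in this pair. Apob had 962 normalized reads in Bcat_RingKO, against 624 in Bcat, a ratio of 1.54 (1.36 to 1.76), or 1.33 (1.18 to 1.51) under TMM scaling. Per kilobase, Apoa4 stood at 2.99 times Apob in Bcat_RingKO, against 33.1 times in Bcat, while the same ratio was 1.60 and 4.71 in RingKO libraries A and B, against 3.34 and 1.94 in WT libraries A and B. Dgat1 had 424 normalized reads in Bcat_RingKO, against 318 in Bcat (ratio 1.33, 1.12 to 1.61), but under TMM scaling the ratio was 1.15 with an interval that held 1 (0.967 to 1.39). Dgat2 had 160 normalized reads in Bcat_RingKO, against 136 in Bcat (1.17, 0.903 to 1.59).

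**Figure D4:**
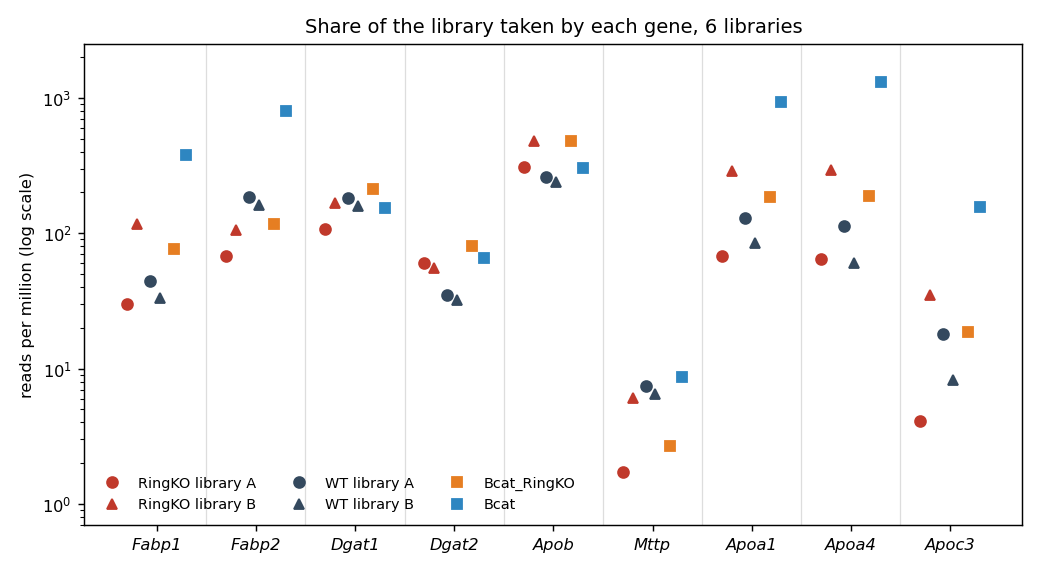
RPM of each gene (vertical axis, log scale) in the libraries of RingKO (red), WT (dark grey), Bcat_RingKO (orange) and Bcat (blue). For Fabp1, Fabp2, Apoa1, Apoa4 and Apoc3 the Bcat library lies above the other 5, which does not hold for Apob, Dgat1 or Dgat2.

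The Bcat library was the one in which the carriers and coat apolipoproteins took the largest share of reads. Fabp1, Apoa1, Apoa4 and Apoc3 summed to 468 RPM in Bcat_RingKO and 2770 in Bcat, beside 166 and 735 in RingKO libraries A and B and 306 and 187 in WT libraries A and B. The 2 tables were normalized separately, so these shares are set side by side as levels without a test. The hepatocyte genes had few reads in this pair. Of the 20, 11 were listed, and they summed to 12.5 RPM in Bcat_RingKO and 17.4 in Bcat. The same genes summed to 42.3 and 777 in RingKO libraries A and B and 202 and 42.9 in WT libraries A and B. Alb had 3 and 7 reads in Bcat_RingKO and Bcat, while Fgb, Hpx, Serpinc1, Mug1, Tat and Tdo2 were at 0 in Bcat. Only 4 of the 11 had at least 10 reads over the pair. Of these, 2 (Alb and Serpina1b) were more than 2-fold lower in Bcat_RingKO (8.86% of all entries) and 0 higher (29.7%). Enterocyte markers summed to 4400 RPM in Bcat_RingKO and 7080 in Bcat. Of 23 with at least 10 reads, 11 were more than 2-fold lower in Bcat_RingKO (8.86% of all entries) and 1 (Slc2a5) higher (29.7%). Krt20 had 81.7 RPM in Bcat_RingKO, against 506 in Bcat. The brush border phosphatase gene Alpi, also chosen after its values were seen, had 45.0, against 242. Markers of other cell types were lower too. More than 2-fold lower were 10 of 12 Paneth, 9 of 10 enteroendocrine, 5 of 10 goblet and 2 of 7 tuft markers, while 1, 0, 3 and 0 were higher. Of 12 stem cell markers 2 (Olfm4 and Cdca7) were more than 2-fold lower and 1 (Lgr5) higher, with a median log2 ratio of 0.15. They summed to 4420 RPM in Bcat_RingKO and 5780 in Bcat, of which Olfm4 made up 567 and 2270. Lgr5 had 337 RPM in Bcat_RingKO, against 158 in Bcat. The part of the share of enterocytes in the ratios was not tested.

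The genes were then set against the rest of lipid handling, 105 other genes in the first table from lists chosen with earlier results of these data known. In RingKO, 1 of the 105 rose (3.14% of all entries did) and 6 fell (1.76%). The median log2 fold change was -0.11, beside 0.02 over all entries. At a mean of 10 or more it was -0.20 over 82 of these genes, close to the -0.18 over all such entries. Angptl4, which encodes an inhibitor of lipoprotein lipase, rose, with 132 and 93.3 normalized reads in RingKO libraries A and B, against 37.7 and 36.6 in WT libraries A and B (edgeR log2 fold change 1.78 ± 0.24). The genes that fell included Ces1d, a carboxylesterase with lipase activity (-1.34 ± 0.18), the ketone body enzyme gene Bdh1 (-0.90 ± 0.15), Etfdh of fatty acid oxidation (-0.72 ± 0.15) and the fatty acid transport protein gene Slc27a2 (-0.70 ± 0.13). The remaining 2 were transcription factors of the intestinal and hepatic lipid programme. Hnf4g had 153.5 and 132 normalized reads in RingKO libraries A and B, against 290.2 and 285 in WT libraries A and B (-0.84 ± 0.15), and Hnf4a had 5083 and 4585 in RingKO, against 7271 and 7536 in WT (-0.43 ± 0.15, edgeR adjusted p = 0.112, deposited adjusted p = 0.0242). The other tests called more genes as higher, 7 by edgeR (9.91% of the entries it tested) and 5 by DESeq2 (6.88%). They called the same number as lower, 6 by each (2.95% and 1.89% of entries). Without WT library A the edgeR adjusted p was 0.0905 for Bdh1, 0.134 for Etfdh, 0.159 for Slc27a2 and 0.102 for Hnf4g, and without WT library B it was 0.0501, 0.195, 0.154 and 0.0801.

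By role, the counts were spread thinly. They stand beside 3.14% of all entries that rose and 1.76% that fell. Of the entries edgeR tested, it called 9.91% as higher and 2.95% as lower, and DESeq2 called 6.88% of its own as higher and 1.89% as lower. For the counts at an unadjusted p under 0.05 the share over all entries was not counted. Of 15 uptake and trafficking genes 0 rose and 1 fell, with 2 higher and 1 lower at an unadjusted p under 0.05, 3 called higher by edgeR (Abcg5, Scarb1 and Slc27a1) and 1 by DESeq2. Of 19 genes of acyl-CoA and triglyceride synthesis none passed in either direction, with 2 higher and 2 lower at an unadjusted p under 0.05, 1 called higher by edgeR (Mogat2, an acyltransferase one step before DGAT) and 1 by DESeq2. Of 21 other genes of chylomicron assembly and apolipoproteins none passed either, with 0 higher and 1 lower at an unadjusted p under 0.05 and 1 called higher by edgeR (Apoa2) and 1 by DESeq2. In this group RingKO library B was more than 2-fold above library A for 11 of 21 genes, against 1.76% of entries at a mean of 50 or more. The group also holds genes with few reads: 15 of the 21 reached a mean of 10. Apoa5, Apoc1, Apol7a, Apon and Pltp had 0 reads in RingKO library A. Of 11 lipid droplet and lipase genes 1 fell, of 19 oxidation and ketogenesis genes 1 rose and 2 fell, and of 20 regulators 2 fell. In these last 3 groups edgeR called 0, 1 and 1 genes as higher and 1, 3 and 1 as lower. DESeq2 called 1, 1 and 0 as higher and 1, 2 and 2 as lower. At an unadjusted p under 0.05 these groups had 0, 1 and 1 genes higher and 2, 3 and 5 lower. Over all 105 genes, 6 were higher and 14 lower at that threshold. Of 27 enterocyte markers outside lipid handling 1 rose (Anpep) and 4 fell, with a median log2 fold change of 0.02. By edgeR 3 were called higher (Anpep, Dpp4 and Cdhr5) and 3 lower, and DESeq2 also called 3 higher and 3 lower. The 3 that edgeR called lower were Prap1 (-1.67 ± 0.26), the protease gene Mep1a (-1.52 ± 0.22) and the disaccharidase gene Sis (-0.97 ± 0.23). The estimate of Sis was -1.12 without WT library A and -0.83 without WT library B, and it did not pass in either fit.

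In the Bcat pair 78 of the other lipid handling genes had at least 10 reads, and 15 were more than 2-fold higher, against 29.7% of all entries, and 10 lower, against 8.86%, with a median log2 ratio of 0.00. The lowest ratios were those of Fabp6, the ileal bile acid carrier (109 normalized reads in Bcat_RingKO and 868 in Bcat, ratio 0.125, 0.106 to 0.147), Apoc2, which encodes the activator of lipoprotein lipase (88.5 and 445, ratio 0.199, 0.163 to 0.244), and Hnf4g (177 and 655, ratio 0.27, 0.231 to 0.315). Hnf4a had 1557 normalized reads in Bcat_RingKO and 3175 in Bcat (0.49, 0.461 to 0.522). The highest ratios were those of the cholesterol exporter gene Abca1 (9.07, 3.67 to 113, on 2 reads in Bcat), the transport protein gene Slc27a1 (360.9 normalized reads in Bcat_RingKO and 55.9 in Bcat, ratio 6.46, 4.48 to 10.5) and Angptl4 (3.73, 2.07 to 9.83, on 8 reads in Bcat). In the first table the normalized reads were 29.8 and 155 for Fabp6 in RingKO libraries A and B, against 227 and 175.5 in WT libraries A and B, and 65.4 and 178 for Apoc2 in RingKO, against 78.0 and 49.3 in WT. Neither passed in the first table (authors' deposited adjusted p = 0.642 and 1). For Fabp6 edgeR gave -2.67 without RingKO library B (adjusted p = 2.88e-06) but -0.17 without RingKO library A (adjusted p = 0.577). For Apoc2 it gave 1.70 without RingKO library A (adjusted p = 0.000175) but 0.16 without RingKO library B (adjusted p = 0.806).

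**Figure D5:**
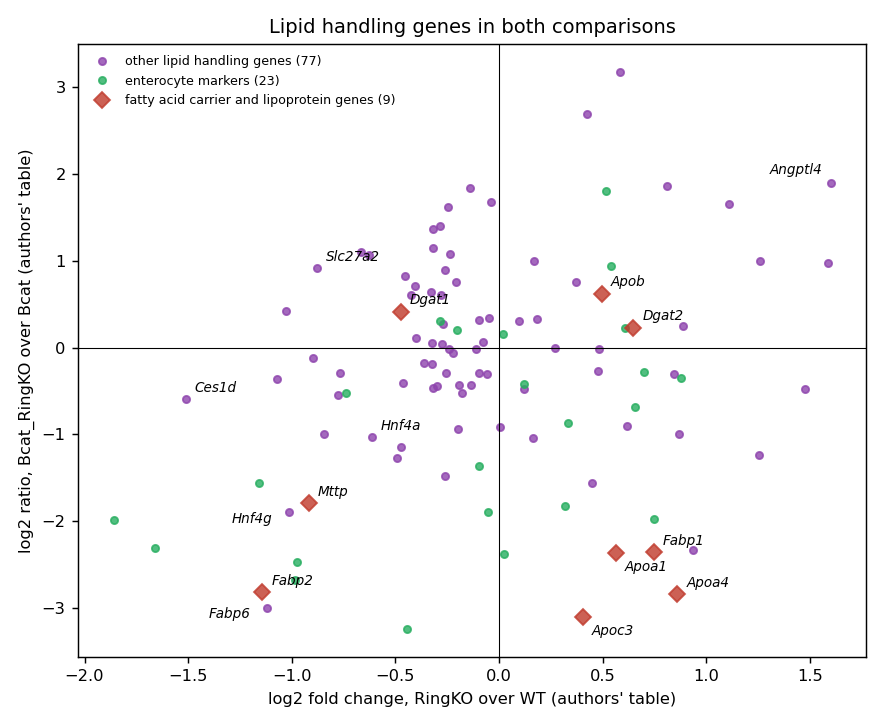
Log2 ratio of Bcat_RingKO over Bcat (vertical axis) against log2 fold change of RingKO over WT (horizontal axis), both from the authors' deposited tables, for the 9 genes (red diamonds), 77 other lipid handling genes (purple) and 23 enterocyte markers (green) with a mean of at least 10 in the first table and at least 10 reads in the second. Fabp2, Mttp, Fabp6 and Hnf4g lie below 0 on both axes, whereas Fabp1, Apoa1, Apoa4 and Apoc3 lie above 0 in the first comparison, where they did not pass, and below -2 in the second.

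Per kilobase of transcript the order of the genes differed between libraries. Fabp2 was highest in RingKO library A and in both WT libraries, with up to 191 RPKM (RPM per kilobase of transcript, WT library A), and Apoa1 was highest in RingKO library B (280), Bcat_RingKO (180) and Bcat (898). Mttp was lowest in all 6 libraries, between 0.434 and 2.19. Apob, first by reads in the 4 libraries of RingKO and WT, stood at 22.1 and 34.3 RPKM in RingKO libraries A and B, against 18.8 and 17.2 in WT libraries A and B, over a transcript of 13.9 kilobases. Neighbours in these orders were not tested against each other. Over the 6 libraries, centred within each table, the profile of Apob was most like those of Pdgfa (Pearson r of 0.995), Pdxdc1 (0.994), Tspan31 (0.993), Ppp1r9b (0.99) and Scand1 (0.988) among 7172 entries. Its r was 0.74 with Dgat2 but 0.10 with Apoa4, 0.12 with Fabp1 and -0.67 with Fabp2. The profile of Apoa4, looked up after its values were seen, had an r of 0.994 with Fabp1, 0.992 with Apoa1 and 0.962 with Apoc3, against 0.644 with Fabp2. These are descriptions over 6 points that share depth and the within-genotype gaps given above.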

How the data were processed

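Total RNA of sorted Lgr5-GFP+ cells was extracted with the RNeasy Plus Micro kit and made into TruSeq RNA v2 libraries, per the labels' protocols. TopHat, DESeq and the mouse build mm9 are named, without versions, by the submitters' processing notes. No source used here names the read counter, its annotation or the use of strand. The authors deposited 2 tables with 1 line per RefSeq entry (18376 for RingKO and WT, 17076 for the Bcat pair). The deposited signal is a read count that the authors normalized, from its values (reads + 1) over a size factor: a mean of 2 libraries in RingKO and WT, 1 library in the Bcat pair. The authors also deposited a fold, its log2 value and a p-value, with an adjusted p-value in the first table, which was the test used.

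A group mean is a sum of whole multiples of 2 known steps, so the reads of each library were recovered. A single solution was found for 100% of RingKO entries and 99.951% of WT entries (9 entries, Olfm4 among them, had several), and 100% of the Bcat pair values gave whole reads (tolerance 0.001). Simulated means were split back without error. Letters A and B are arbitrary. On these reads edgeR 4.0.16 (quasi-likelihood test, TMM, filterByExpr), DESeq2 1.42.0 and limma 3.58.1 were run in R 4.3.3 over all entries with Benjamini-Hochberg adjustment, after checks on simulated counts. edgeR called 1107 entries as higher and 330 as lower. The SE divides the log2 fold change by the square root of F. Bcat pair intervals are exact conditional binomial (Clopper-Pearson) and cover counting error only. Transcript lengths and the chromosome of each gene come from the GRCm38 annotation. Profiles were compared by Pearson r of log2(RPM + 1) over entries at a mean of 50 or more in both tables.

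The genes and gene lists were chosen with earlier results of these data known. Besides the 10 genes and the label and sort checks, the text names up to 8 called lipid handling genes and up to 3 of each other list by smallest adjusted p, and the 3 highest and 3 lowest ratios of lipid handling genes in the Bcat pair; others are marked. The lists of Paneth, goblet, enteroendocrine, tuft, immune, endothelial and stromal, and adipocyte markers are given with the other observations.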

Additional observations from a re-analysis of the deposited data

Results flagged for a closer look

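Some of the genes named by the rules above had both RingKO libraries on one side of both WT libraries and a Bcat pair ratio on the other side of 1, with a counting interval that does not hold 1. Genes not named were not searched for this pattern. The difference between the 2 comparisons was not tested in any of them, since the Bcat groups have 1 library each. Among the fatty acid carrier and lipoprotein genes this was Dgat1, lower in both RingKO libraries than in both WT libraries and at a ratio of 1.33 in Bcat_RingKO over Bcat. Under TMM scaling its ratio was 1.15 with an interval that held 1. Of the other lipid handling genes named it was Slc27a2, which fell in RingKO and had a ratio of 1.89 in the Bcat pair. The Paneth cell genes Defa24, Itln1 and Defa3 rose in RingKO and had ratios of 0.245, 0.272 and 0.27 in the Bcat pair, and the goblet cell gene Spink4 rose in RingKO and had a ratio of 0.294. Defensin genes are near-identical copies, so their single values are uncertain.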

How the results depend on the processing

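Of the log2 fold changes and their alternatives for the genes named, 332 kept their direction and side of the threshold, 26 passed it newly, 22 no longer passed and 9 reversed. Without RingKO library B the sign reversed for Fabp1 (-0.31), Apoa1 (-0.60), Apoa4 (-0.38), Apoc3 (-1.61) and Lgr5 (0.21), and without RingKO library B and WT library A together, chosen after seeing the data, for Fabp1 (-0.24), Apoa1 (-0.42), Apoa4 (-0.01) and Apoc3 (-1.02). The cause was not tested. Of the Bcat pair ratios 115 stayed within their counting interval and 11 moved, all under TMM scaling, by the shift common to every entry.

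Counts of calls depended on the test. The 577 entries higher in the authors' deposited table became 1107 by edgeR, 1060 without a filter on low counts, 1121 with DESeq2's size factors, 872 by DESeq2 and 992 by limma-trend, and 479 to 1938 with 1 library left out (1322 without RingKO library B). The 323 lower entries became 83 to 1338 with 1 library left out (589 without RingKO library B, 87 without WT library A). Among the 9 genes the count higher was 0 in the deposited table, 1 by edgeR under each of its 3 settings and by limma-trend, 2 by DESeq2, and 0 to 6 with 1 library left out, where 6 stands for the fit without RingKO library A. The count lower was 1, or 0 to 4 with 1 library left out (4 without RingKO library B, 0 without either WT library). The other lipid handling genes higher numbered 1, against 7 by edgeR, 6 without a filter, 7 with DESeq2's size factors, 5 by DESeq2 and 5 by limma-trend, and 1 to 20 with 1 library left out, and those lower numbered 6, or 1 to 15 (13 without RingKO library A). Enterocyte markers higher numbered 1, against 3 by edgeR, by edgeR with DESeq2's size factors and by DESeq2, and 0 to 10 with 1 library left out, and those lower numbered 4, against 2 by limma-trend and 2 to 8. In the Bcat pair the 1073 entries more than 2-fold lower became 3426 with no minimum of reads, 644 with at least 50 reads and 2055 at a fold of 1.5. The 6 of 9 genes lower stood at 5 to 6 in all alternatives, and 1 (Apob) was higher at a fold of 1.5. The other lipid handling genes higher numbered 27 instead of 15 at a fold of 1.5, those lower 16 instead of 10, or 22 with no minimum of reads, and enterocyte markers higher 2 instead of 1 at a fold of 1.5. Taking the entry with the lowest mean of a symbol changed none of the counts by more than 1.5 times.

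No paired analysis was possible because the columns carry no replicate numbers, and the recovered libraries cannot be matched to those of the labels. With 2 libraries per genotype, fits without 1 library assume that the lone library varies like the others. The depth of the Bcat library (922153 reads) limits genes with few reads, Mttp above all (8 reads), and the intervals there hold no variation between animals.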

Other observations

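Markers of the other cell types that the sort could hold were counted in the same way, beside 3.14% of all entries that rose and 1.76% that fell. Of 12 Paneth cell markers 9 rose and 0 fell in RingKO (summed level 10300 and 14300 RPM in RingKO libraries A and B, against 4470 and 2920 in WT libraries A and B), and 10 of 12 were more than 2-fold lower in Bcat_RingKO than in Bcat. Of 10 goblet cell markers 1 rose and 1 fell. Of 11 enteroendocrine markers 8 fell and 1 rose, and of 8 tuft cell markers 5 fell and 0 rose. In these 4 lists RingKO library B over A had median log2 ratios of 0.40, 0.55, 0.49 and 0.18, below those of Fabp1, Apoa1, Apoa4 and Apoc3. Of 12 stem cell markers 4 fell and 0 rose.

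Of 11 immune, 11 endothelial and stromal and 4 adipocyte markers, 0 passed in the authors' deposited table and 0 at an unadjusted p under 0.05. Neither edgeR nor DESeq2 called any (0 by each). Over the 8, 7 and 3 of them found in both tables, their sums stayed at or below 74.9 RPM in all 6 libraries. The 8 immune markers summed to 13.7 and 20.8 in RingKO libraries A and B, against 11.1 and 9.06 in WT libraries A and B. Slc27a4, which encodes a fatty acid transport protein, had the profile most like that of Apoa4 over the 6 libraries (Pearson r of 0.997, chosen after its values were seen), but over a narrow range: 109 and 125 RPM in RingKO libraries A and B, 114 and 107 in WT libraries A and B, 124 in Bcat_RingKO and 148 in Bcat. Apoa4 had 64.3 and 293 in RingKO libraries A and B, 114 and 60.7 in WT libraries A and B, 187 in Bcat_RingKO and 1300 in Bcat.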
